A study of Drosophila melanogaster with 27 samples.

Results

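Cytosolic ribosomal proteins are the proteins that, together with the ribosomal RNAs, build the small and the large subunit of the ribosomes that translate nuclear genes. The transcripts of 40 of their genes were followed here, of 11981 genes that the array reports through a probe set assigned to 1 gene only. Members were taken by symbol, as genes named RpL or RpS with a number or RpLP0, RpLP1 and RpLP2, and each gene is given by its probe set with the highest mean value (the set of oligonucleotides by which the array reads a transcript). Of the members, 24 carry a large subunit name and 16 a small subunit name. The gene sta, which the choice would have taken in, has no probe set of its own in these data and was not analysed here.

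RNA was measured with Affymetrix Drosophila Genome 2.0 arrays in 27 pools of whole adult males of Drosophila melanogaster, 3 pools in each of 9 groups, to compare inbred flies that had lost much fitness with inbred flies that had lost little. The most depressed groups held the 3 sublines with the lowest pupa productivity of line 5, line 7, line 12 or line 15, and the least depressed groups the 3 sublines of the same line with the highest productivity. Every inbred subline had passed through 8 generations of sib mating, to an average inbreeding coefficient of about 0.7, and all sublines of a line descend from 1 couple of the base population, so a line is a sample of 1 pair of founders. The outbred control was 3 samples of males from the same base population with no sib mating, of the same sex, tissue and culture. The most depressed sublines were taken among those with enough flies left, and productivity was measured as progeny per female, whereas RNA came from males. Values are log2 expression, in which a difference of 1 is a doubling, and levels of different probe sets cannot be set against each other.

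Ribosomal protein genes are transcribed in almost every cell, and their transcripts are among the most abundant of the fly. In Drosophila a loss of 1 copy of many of them causes the Minute phenotype, with slow development, thin bristles and low fertility. Several members have a second gene copy, a paralogue, and a number of these copies are known from the germ line, such as RpS5b in the ovary and RpL22-like in the testis. RpL24-like and RpL7-like carry ribosomal protein names, but their yeast relatives Rlp24 and Rlp7 are assembly factors that hold a place in the forming large subunit.

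All 40 members were among the probe sets kept for the tests. The 26 members outside the list of paralogous genes had mean values over the 27 arrays from 12.80 to 14.02, with RpL41, RpLP1 and RpL15 at the top (14.02, 13.82 and 13.76). The 14 members of the paralogue list ran from 6.95 to 13.72. Of all members, RpS28a, RpS10a and RpL37-2 had the lowest means (6.95, 6.99 and 8.05). For RpS28a and RpS10a only some inbred arrays, and no control array, reached the limit of 7.18 required of at least 1 array. The genes outside the paralogue list varied little between arrays of the same group, with a median within-group SD of 0.0773 and a range of 0.0438 to 0.110. The median SD was 0.190 in the paralogue list, 0.164 over all probe sets kept, and 0.109 over the 196 probe sets of other genes that were as bright. In 14 members the probe set is of the type that the array maker marks as shared between transcripts, and the signal of a close copy cannot be told apart there.

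Some arrays stood apart. Transcripts of the female germ line were raised in 5 of the 27 arrays of male pools: replicate 3 of line 5 most depressed, replicate 2 of line 7 most depressed, replicate 2 of line 15 most depressed, replicate 2 of line 5 least depressed and replicate 1 of line 15 least depressed. The median of 10 female germ line genes, each set to 0 at its own median over arrays, was 0.56 to 2.59 in these arrays and -0.53 to 0.13 in the other 22. Testis and accessory gland lists had median levels of 10.92 and 12.62 over the arrays, and the female germ line list 4.43, which is under the limit of 7.18. As levels of different probe sets, these do not measure how much of each tissue the pools held. Replicate 2 of line 15 most depressed had the highest value of all arrays in 17 of the 26 genes outside the paralogue list, while the lowest value fell on outbred control replicate 2 in 10 genes and on line 12 most depressed replicate 2 in 5.

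**Figure D1:**
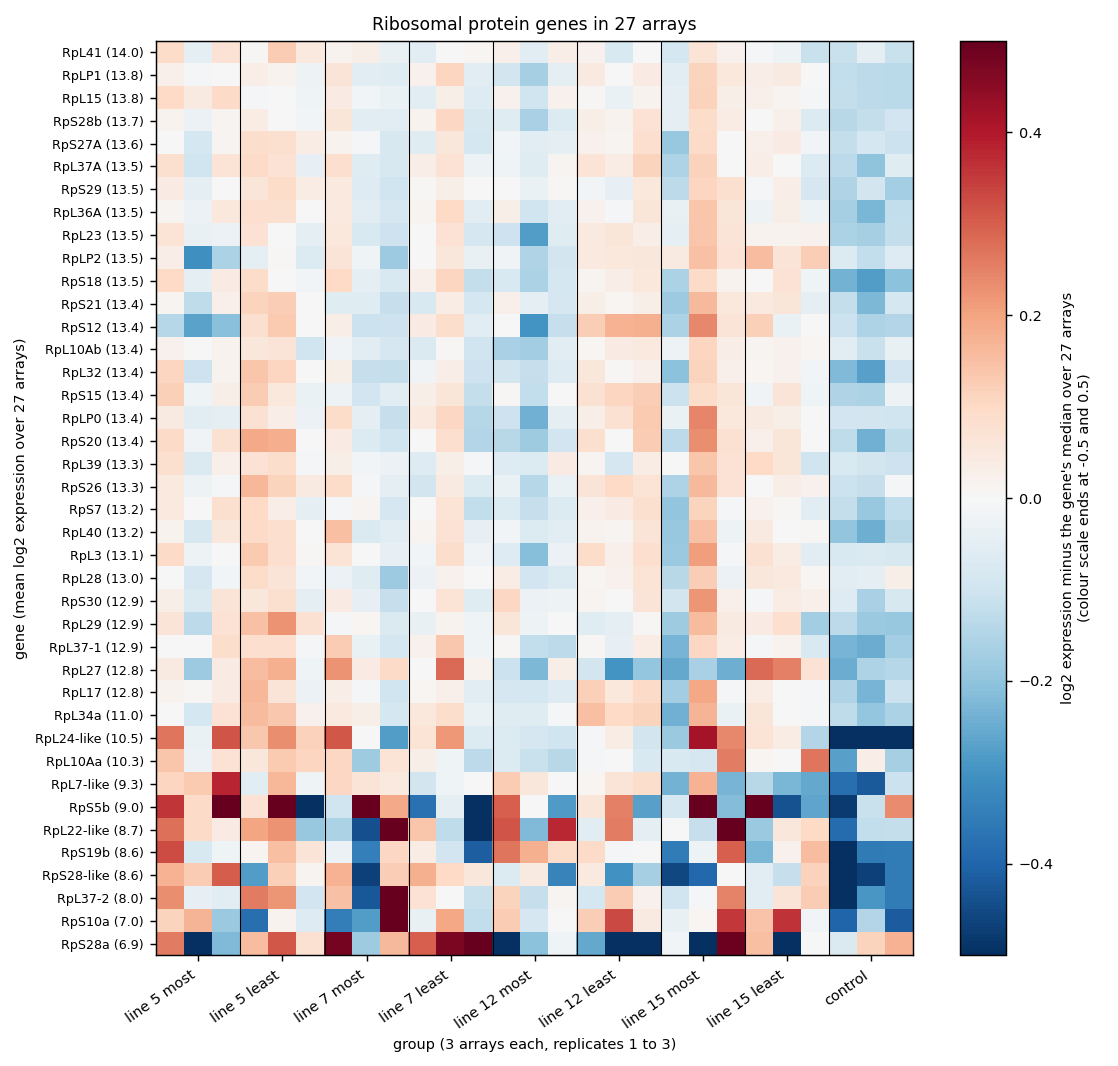
Log2 expression of the 40 ribosomal protein genes (rows, by falling mean level, given in parentheses) in the 27 arrays (columns, 3 per group), as the difference from the median of the gene over all arrays. The control columns at the right are mostly blue, replicate 2 of line 15 most depressed is red over most rows, and colours deepen in the paralogues at the bottom, where values vary more between arrays.

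Against the outbred control, most ribosomal protein transcripts of the least depressed sublines were slightly higher. Of the 40 members, 27 rose and 0 fell (67.5% higher, limma with Benjamini-Hochberg adjustment over all probe sets, adjusted p under 0.05), where 30.7% of all probe sets tested were called higher and 15.1% lower. The 27 include RpS10a, which was kept for the tests through inbred arrays alone. The median change of the members was 0.16 on the log2 scale and that of all probe sets 0.12, so the members lay close to the shift of the whole array. In 17 of 40 members every one of the 12 least depressed arrays was above every control array, compared with 18.5% of all probe sets. The changes of 39 members were above 0, as were 66.5% of all probe sets, and that of RpS28a was below, and with each array centred on its median RpL10Ab and RpL28 were below 0 too. Fewer cells of a type and less RNA per cell cannot be told apart in RNA of whole flies.

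In the most depressed sublines 15 of 40 members rose against the control and 0 fell (37.5%), where 25.9% of all probe sets were called higher and 13.2% lower, and the median change was 0.13 for the members and 0.10 for all probe sets. All 12 most depressed arrays were above the controls in 5 members, against 12% of all probe sets. All 15 members were also among the 27 called in least depressed sublines. Both comparisons share the same 3 control samples, so they are not independent. RpL28 and RpS28a were below 0, and after centring RpL10Ab, RpLP2 and RpS12 as well.

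Outside the paralogue list, 18 of 26 members rose in least depressed and 9 of 26 in most depressed sublines. Of all probe sets, 30.7% were higher in least depressed and 25.9% in most depressed sublines. In least depressed sublines 10 of 16 large subunit genes and 8 of 10 small subunit genes passed the test, and their median changes were 0.16 and 0.15. In most depressed sublines 7 of 16 large and 2 of 10 small subunit genes passed it, with median changes of 0.12 and 0.11. The 2 of 10 lay below the share of all probe sets. The changes were small. The largest in this class was that of RpS18, a protein of the head of the small subunit, at 0.26 (SE 0.053, adjusted p = 0.000439) in least depressed and 0.22 (SE 0.053, adjusted p = 0.0028) in most depressed sublines.

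RpS18 and RpL36A, a protein of the large subunit, were chosen for naming with their values known, because like RpL24-like they passed the test in both comparisons under each alternative tried. RpL36A was at 13.40, 13.49 and 13.64 (lowest, median and highest) in the 12 most depressed arrays, at 13.44, 13.52 and 13.60 in the 12 least depressed arrays, and at 13.33, 13.27 and 13.38 in the 3 control arrays. No inbred array was as low as any control array. Its change was 0.20 (SE 0.044, adjusted p = 0.00109) in least depressed and 0.17 (SE 0.044, adjusted p = 0.00391) in most depressed sublines.

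The stalk proteins RpLP0, RpLP1 and RpLP2 form the flexible arm of the large subunit that recruits the translation factors with GTPase activity. Only RpLP1 passed the test among them, with 0.15 (SE 0.039, adjusted p = 0.00374) in least depressed and 0.11 (SE 0.039, adjusted p = 0.0306) in most depressed sublines. RpLP0 had a change of 0.13 in least and of 0.07 in most depressed sublines, and RpLP2 of 0.12 in least and of 0.04 in most depressed sublines, none of them past the threshold. RpLP1 ranged from 13.66 to 13.94 in most depressed, from 13.77 to 13.94 in least depressed and from 13.69 to 13.71 in control arrays, so only the least depressed arrays were clear of the controls.

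**Figure D2:**
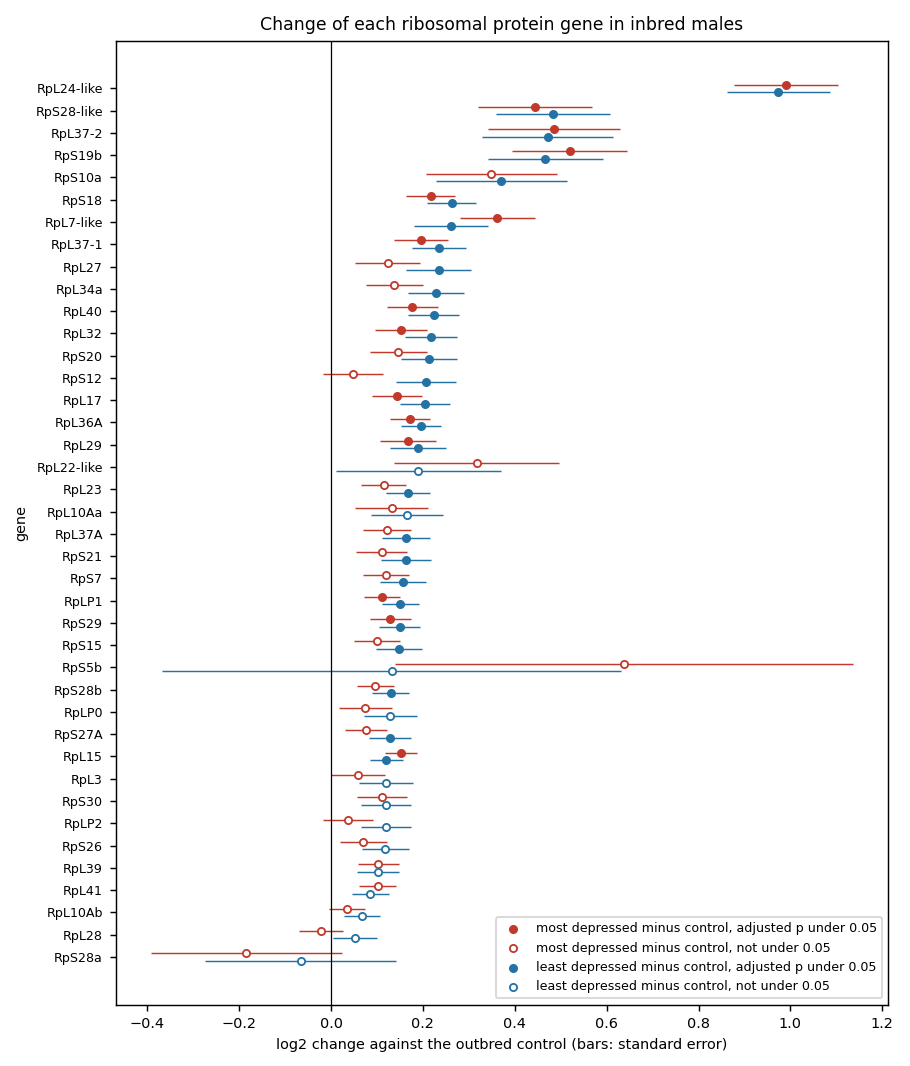
Log2 change of each member against the outbred control (horizontal axis, bars are standard errors) in most depressed (red) and least depressed (blue) sublines, with filled points where the adjusted p was under 0.05. Nearly all points lie right of 0, most between 0 and 0.3, and RpL24-like stands alone at 0.99 and 0.97.

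The largest change by far was that of RpL24-like. It was at 10.29, 10.55 and 10.98 (lowest, median and highest) in the 12 most depressed arrays and at 10.42, 10.62 and 10.80 in the 12 least depressed arrays. The controls were at 9.61, 9.48 and 9.83. All 24 inbred arrays, of all 4 lines, were above all 3 controls. RpL24-like rose by 0.99 (SE 0.11, 1.99-fold, adjusted p = 1.94e-06) in most depressed and by 0.97 (SE 0.11, 1.96-fold, adjusted p = 1.81e-06) in least depressed sublines, with no call between them (0.02, SE 0.071, adjusted p = 0.911). The call held whichever array was left out. In the 5 arrays with female germ line transcripts its mean was 0.19 above that of the other 19 inbred arrays, and without those 5 arrays it passed both tests.

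RpL7-like, the other member with an assembly factor as yeast relative, rose by 0.36 (SE 0.081, adjusted p = 0.00149) in most depressed sublines. In least depressed sublines it rose by 0.26 (SE 0.081, adjusted p = 0.0121). It ran from 9.10 to 9.72 in most depressed and from 9.08 to 9.50 in least depressed arrays. The control arrays were at 8.96, 8.91 and 9.23, and the third of them lay within both inbred ranges. The mean of RpL7-like was 0.15 higher in the 5 arrays with female germ line transcripts than in the other 19 inbred arrays.

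RpS28-like, RpL37-2, RpS19b and RpS10a are second copies of genes of the small subunit, except RpL37-2 which belongs to the large subunit, and they had the next largest changes in least depressed sublines. RpS28-like was at 8.21 to 8.98 in most depressed arrays, 8.38 to 8.86 in least depressed arrays and 7.97, 8.21 and 8.33 in the controls. It rose by 0.44 (SE 0.12, adjusted p = 0.00768) in most depressed and by 0.48 (SE 0.12, adjusted p = 0.00335) in least depressed sublines, and all least depressed arrays were above the controls while most depressed arrays overlapped them.

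RpL37-2 was at 7.63 to 8.74 in most depressed, 7.94 to 8.31 in least depressed and 7.41, 7.76 and 7.70 in control arrays. The least depressed arrays were all above the controls, and the most depressed arrays overlapped with them. Its changes were 0.49 (SE 0.14, adjusted p = 0.0105) in most and 0.47 (SE 0.14, adjusted p = 0.0105) in least depressed sublines. Its paralogue RpL37-1 rose by 0.20 (SE 0.058, adjusted p = 0.0116) in most and by 0.24 (SE 0.058, adjusted p = 0.00263) in least depressed sublines.

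RpS19b rose by 0.52 (SE 0.12, adjusted p = 0.00263) in most depressed and by 0.47 (SE 0.12, adjusted p = 0.00463) in least depressed sublines. Its arrays were at 8.34 to 9.02 in most depressed, 8.28 to 8.85 in least depressed and 7.95, 8.34 and 8.34 in control flies. The least depressed arrays overlapped with the 2 higher controls, and the most depressed arrays with the highest of them. RpS10a, one of the dim members, passed the test in least depressed sublines (0.37, SE 0.14, adjusted p = 0.0396), and its change was 0.35 in most depressed sublines (adjusted p = 0.0581). Its control arrays were at 6.59, 6.84 and 6.58, under the limit of 7.18, so it was kept through inbred arrays alone. Such a choice favours a higher call, and no rise is read from it. The call was lost under 4 of 8 alternatives and without any of 7 arrays, left out 1 at a time (adjusted p up to 0.153).

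The rest of the paralogue list moved little or varied widely. RpL34a rose in least depressed sublines (0.23, adjusted p = 0.00461) and was at 0.14 in most depressed sublines, past no threshold. RpS28b rose in least depressed sublines (0.13, adjusted p = 0.0117) and was at 0.10 in most depressed sublines. RpL10Aa and RpL10Ab are a pair of copies of the same protein and were not called. RpL10Aa had 0.17 in least and 0.13 in most depressed sublines, and RpL10Ab had 0.07 in least and 0.03 in most depressed sublines. RpL22-like had 0.32 in most and 0.19 in least depressed sublines, with an SE of 0.18. RpS28a had -0.18 in most and -0.07 in least depressed sublines, with an SE of 0.21.

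Of the 4 genes with more than 1 probe set, a second one passed the limit for RpL3 and RpS29. The second RpS29 probe set was called in least depressed sublines (0.15, adjusted p = 0.0298) as the first one was (0.15, adjusted p = 0.00945). In most depressed sublines it had 0.12 (adjusted p = 0.071), where the first was called at 0.13 (adjusted p = 0.0266). The second RpL3 probe set was called in neither comparison, like the first.

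Other transcripts moved with the comparison with the control. The median of 13 muscle genes, each set to 0 at its own median, was at -0.46 to 0.72 in most depressed, -0.43 to 0.48 in least depressed and 0.76 to 1.03 in control arrays, with 12 of the 13 lower in most and 11 lower in least depressed sublines. Of all probe sets, 13.2% were called lower and 35.2% were below 0 in most depressed sublines. In least depressed sublines these shares were 15.1% and 33.5%. The accessory gland list was at -0.21 to 0.14 in most depressed, -0.04 to 0.26 in least depressed and -0.49 to -0.24 in control arrays. The median of all probe sets kept was 8.39 to 8.51 in most depressed, 8.44 to 8.50 in least depressed and 8.40 to 8.42 in control arrays. With each array centred on its median, 12 members rose in least depressed sublines, where 22.2% of all probe sets were higher, and 9 in most depressed sublines, where 20.1% were higher, so that the 9 of 40 lay near the background. The share of higher calls among all called probe sets was 54.8% instead of 67% in least depressed and 56% instead of 66.3% in most depressed sublines. Sample codes with higher numbers, called later codes here, were borne by 9 of the 12 least depressed arrays and by 1 most depressed array, and by no control. The labels do not say what the codes mean. Some of these arrays bear an earlier code as well, which the covariate does not tell apart. With the code as a covariate 4 of 40 members rose in least depressed sublines, RpL24-like, RpL36A, RpS18 and RpS19b, where 15.9% of all probe sets were higher, so that the members were not called above the background there. The part of each of these in the result was not tested.

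The control group was small, and single arrays of it moved the counts. Without outbred control replicate 1, 17 members rose in least depressed and 6 in most depressed sublines. Without outbred control replicate 2, 9 rose in most depressed sublines, and without replicate 1 of line 15 most depressed 28 did. The shares of all probe sets called without these arrays were not computed, so these counts cannot be set against a background. The median change of the members stayed between 0.16 and 0.19 in least depressed and between 0.11 and 0.14 in most depressed sublines, whichever array was left out.

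**Figure D3:**
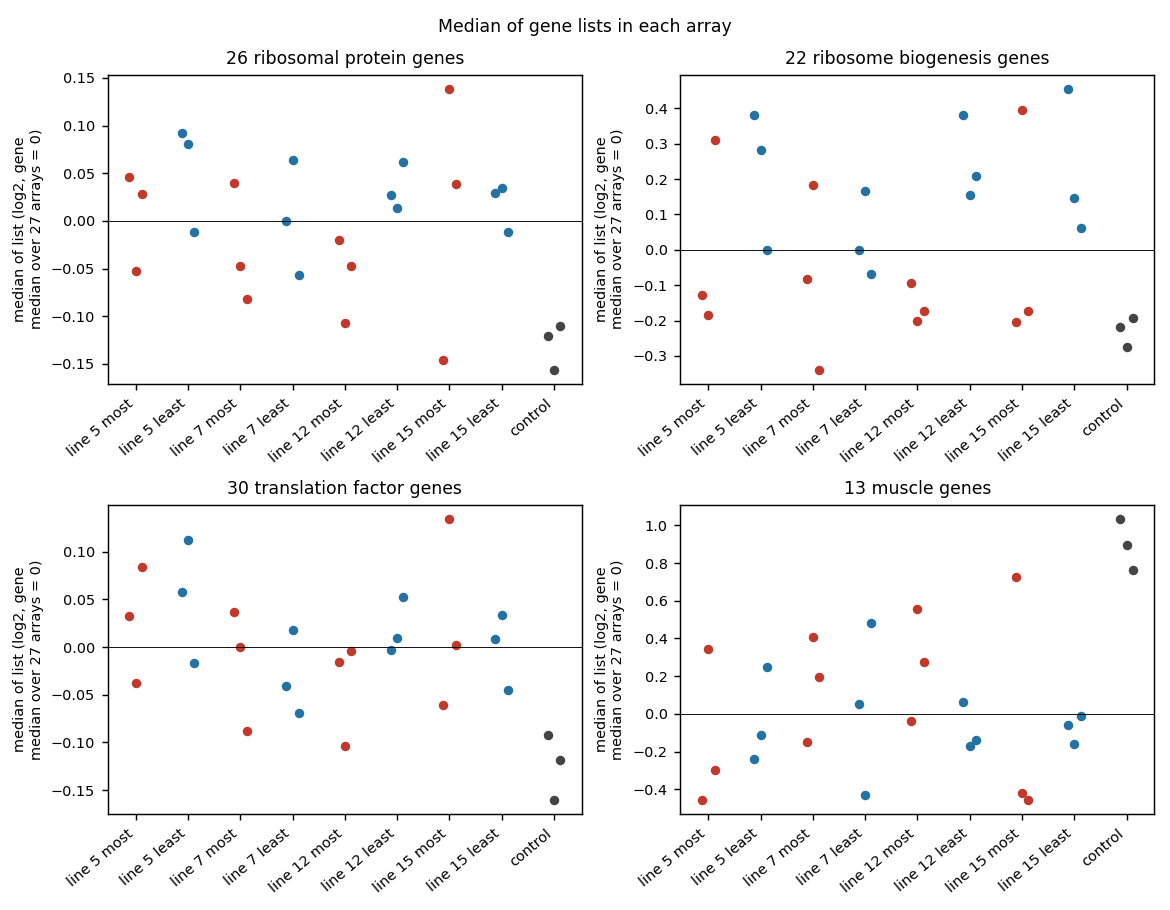
Median of 4 gene lists in each array (points, 3 per group), with each gene set to 0 at its median over 27 arrays, for 26 ribosomal protein genes outside the paralogue list, 22 ribosome biogenesis genes, 30 translation factor genes and 13 muscle genes. The 3 control arrays lie low in the first 3 lists (-0.16 to -0.11 for the ribosomal proteins) and high in muscle (0.76 to 1.03), and the vertical scale differs between panels.

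Between the most and the least depressed sublines, averaged over the 4 lines, 1 member differed. RpS12, a protein of the small subunit through which Drosophila cells that lack a copy of another ribosomal protein gene are recognised in cell competition, fell by 0.16 in most depressed sublines (SE 0.041, adjusted p = 0.0108, limma). No member rose. Among all probe sets 9.04% were called lower and 6.39% higher. At an unadjusted p under 0.05 there were 5 members, all lower (RpS12, RpL27, RpL28, RpL34a and RpLP2), where 14.8% of all probe sets were lower at this p. The median change of the 40 members was -0.04 and that of all probe sets -0.01, and 31 members were below 0, as were 53.5% of all probe sets.

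RpS12 was at 13.32, 13.20 and 13.25 in most depressed and at 13.54, 13.60 and 13.46 in least depressed sublines of line 5. In line 12 it was at 13.47, 13.16 and 13.35 in most depressed and at 13.59, 13.64 and 13.64 in least depressed sublines. The levels did not overlap in these lines. In line 7 it was at 13.50, 13.36 and 13.36 in most depressed and at 13.51, 13.55 and 13.41 in least depressed sublines, and in line 15 at 13.31, 13.70 and 13.53 in most depressed and at 13.58, 13.43 and 13.46 in least depressed sublines. Both pairs overlapped. The controls had 13.36, 13.31 and 13.32, near the most depressed arrays, and RpS12 was called higher than the control in least depressed sublines (0.21, SE 0.065, adjusted p = 0.0136) but was at 0.05 in most depressed sublines (adjusted p = 0.592).

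The within-line changes of RpS12 were -0.28 in line 5 (adjusted p = 0.0837), -0.08 in line 7, -0.29 in line 12 (adjusted p = 0.0428) and 0.02 in line 15, each with an SE of 0.082. These differences among lines did not pass the interaction test (adjusted p = 0.614). With the later sample code as a covariate the mean change was -0.10 and it was not called (adjusted p = 0.408, in a range of 0.00775 to 0.408 over the alternatives). The call held whichever single array was left out. Gut and accessory gland genes were also lower in most depressed sublines (6 of 12 and 8 of 14 called, where 9.04% of all probe sets were lower). Their part in the change of RpS12 was not tested.

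**Figure D4:**
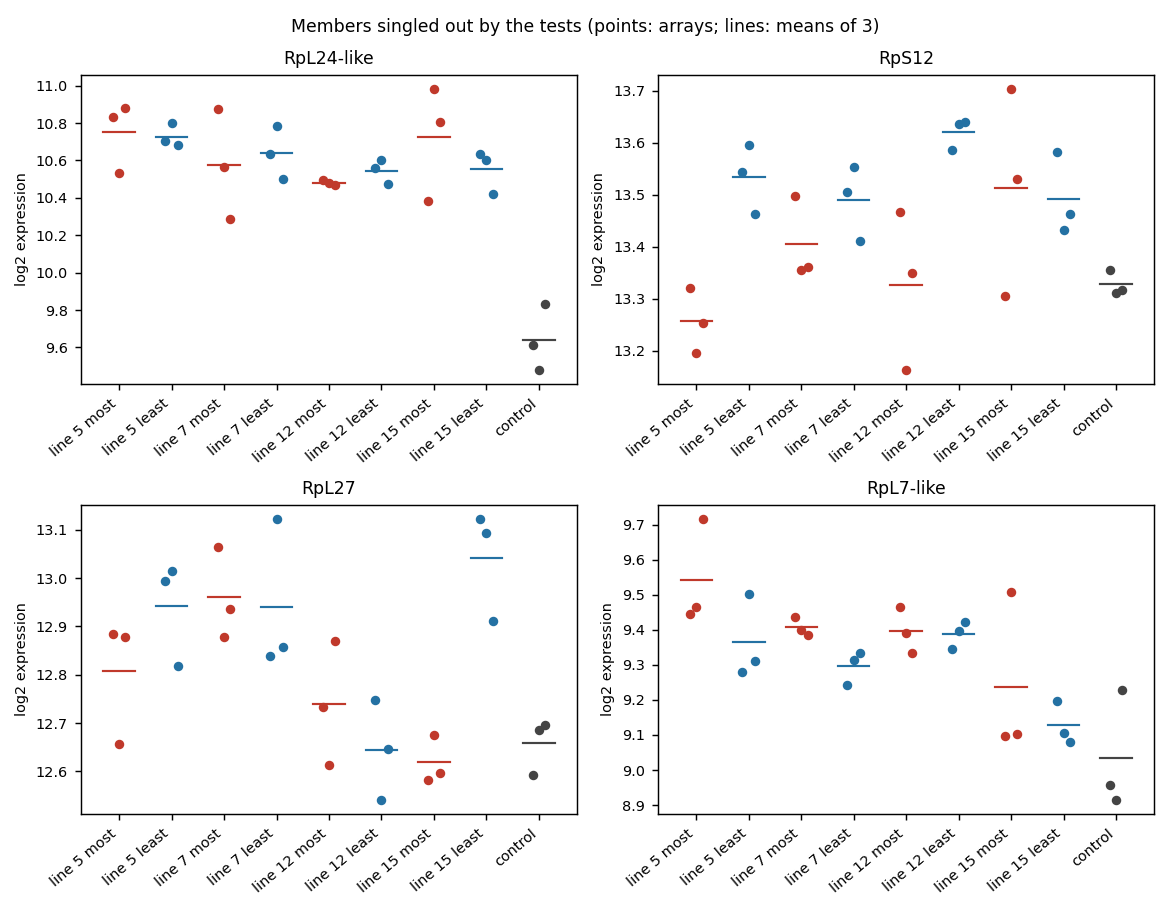
Log2 expression of RpL24-like, RpS12, RpL27 and RpL7-like (vertical axes, which do not start at 0) in the 9 groups, with 1 point per array and a line at the mean of 3. RpL24-like is low in the controls alone, RpS12 is lower in most than in least depressed sublines of lines 5 and 12, and RpL27 is at 12.62 in most and 13.04 in least depressed sublines of line 15.

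Within single lines 1 member was called in line 12, 1 in line 15 and 0 in lines 5 and 7. In line 12, 3.55% of all probe sets were lower and 1.24% higher, and RpS12 was the member called. Another 12 members of this line were at an unadjusted p under 0.05, all of them lower, where 12% of all probe sets were lower at this p. Of the 40 members 32 were below 0, as were 55.1% of all probe sets, and their median change was -0.08. Of the stalk proteins, RpLP0 was at -0.21 (adjusted p = 0.0968) and RpLP1 at -0.13 (adjusted p = 0.135). After centring, the share of higher calls over all probe sets of this line was 40.4% instead of 25.9%, and RpS12 was not called (-0.26, adjusted p = 0.0595; the adjusted p ranged from 0.00882 to 0.467 over the alternatives). The call was also lost without any of 9 arrays, left out 1 at a time, which were replicates 2 and 3 of line 12 most depressed, the 3 arrays of line 12 least depressed, replicate 1 of line 7 least depressed and the 3 controls. Without replicate 2 of line 12 most depressed the change was -0.21 (adjusted p = 0.213).

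In line 5 the limma test called no member, where 1.31% of all probe sets were lower and 0.788% higher. RpS12 alone was at an unadjusted p under 0.05, where 14.1% of all probe sets were at this p. In line 7 limma called none, where 0.0109% were lower and 0% higher. No member of line 7 had an unadjusted p under 0.05, where 9.45% of all probe sets were at this p. The median changes of the members were -0.04 in line 5, -0.02 in line 7 and 0.01 in line 15.

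In line 15, RpL27, a protein of the large subunit, was lower in most depressed sublines, where 1.2% of all probe sets were lower and 0.372% higher. It was at 12.58, 12.68 and 12.60 in most depressed and at 13.12, 13.09 and 12.91 in least depressed sublines, with no overlap, and the change was -0.42 (SE 0.090, adjusted p = 0.0195). The most depressed sublines of this line had about the level of the controls (12.59, 12.69 and 12.70). No other member of line 15 had an unadjusted p under 0.05, where 12.5% of all probe sets were at this p. The changes of RpL27 were -0.14 in line 5, 0.02 in line 7 and 0.09 in line 12, none called. In line 15, most depressed replicate 2 and least depressed replicate 1 carried female germ line transcripts. Without the arrays of this kind the change was -0.41 and no longer called (adjusted p = 0.209), with 2 arrays left in each group of line 15, and over the alternatives the adjusted p ran from 0.0196 to that value. In line 15 it was not called either without most depressed replicate 3 (adjusted p = 0.0598), least depressed replicate 1 (adjusted p = 0.117) or least depressed replicate 2 (adjusted p = 0.0729).

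No member passed the interaction test of limma for an effect of depression that differs between lines, where 0.0219% of all probe sets were called. At an unadjusted p under 0.05 there were 2 members, where 7.35% of all probe sets were at this p. These members were RpL27, which had the lowest adjusted p (0.333), and RpS12.

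Between the 4 lines, with both depression levels averaged, RpL27 was the only member called (adjusted p = 0.0427), where 11.8% of all probe sets differed. It was lower in line 12 than in the mean of the other lines (-0.19, SE 0.052, adjusted p = 0.0368, with 2.57% of all probe sets lower and 1.81% higher). The means of line 12 were 12.74 ± 0.13 in most depressed and 12.65 ± 0.10 in least depressed sublines (SD, n = 3 each), and those of line 7 were 12.96 ± 0.095 in most depressed and 12.94 ± 0.16 in least depressed sublines. Line 15 had the lowest and the highest group mean, 12.62 ± 0.05 in most and 13.04 ± 0.11 in least depressed sublines. The groups of line 12 overlapped with those of line 5. The adjusted p of the test between lines ran from 0.0334 to 0.0966 over the alternatives and was above 0.05 under 4 of 9 of them. It was also above 0.05 without any of 15 arrays, left out 1 at a time. The call of line 12 against the other lines was lost under 5 of 9 alternatives (adjusted p up to 0.105) and without any of 9 arrays (up to 0.118).

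RpL7-like was lower in line 15 than in the other lines (-0.22, SE 0.059, adjusted p = 0.0491, where 1.29% of all probe sets were lower and 1.65% higher). It was at 9.10, 9.51 and 9.10 in most depressed and at 9.20, 9.11 and 9.08 in least depressed sublines of line 15, so that only replicate 2 of the most depressed sublines, an array with female germ line transcripts, was within the range of 9.24 to 9.72 of the other lines. This call was lost without any of 22 arrays, left out 1 at a time (adjusted p up to 0.14), and under 4 of 9 alternatives (up to 0.166). Against the other lines, limma called no member in line 5, where 2.28% of all probe sets were higher and 1.83% lower. It called none in line 7 either, where 1.77% were higher and 2.33% lower. At an unadjusted p under 0.05 there were 4 members in line 5 and 2 in line 7. Of all probe sets, 22.6% were at this p in line 5 and 17.9% in line 7.

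RpS5b varied more than any other member, with a within-group SD of 0.84, and it did so together with transcripts of the female germ line. It was at 11.04 in replicate 3 of line 5 most depressed, 10.82 in replicate 2 of line 7 most depressed, 10.33 in replicate 2 of line 15 most depressed, 10.30 in replicate 2 of line 5 least depressed and 9.83 in replicate 1 of line 15 least depressed. The other 22 arrays were between 7.89 and 9.09, with a median of 8.64. The 5 arrays were chosen by the germ line list, which does not hold RpS5b, and their RpS5b values did not overlap with the rest. The median of the 3 yolk protein genes, set to 0 in the same way, was 4.84 to 6.89 in these arrays and -1.21 to 3.47 in the others.

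The mean of RpS5b was 1.84 higher in the 5 arrays than in the other 19 inbred arrays. The next largest differences were 0.19 for RpL24-like, 0.15 for RpL7-like and 0.12 for RpL29. RpL22-like, the testis copy, was at -0.18. RpS5b was called in no comparison. Its change was 0.51 between most and least depressed sublines (SE 0.32, adjusted p = 0.326), 0.64 in most depressed against control and 0.13 in least depressed against control (SE 0.50 in both). Without the 5 arrays the change in least depressed sublines was below 0.

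**Figure D5:**
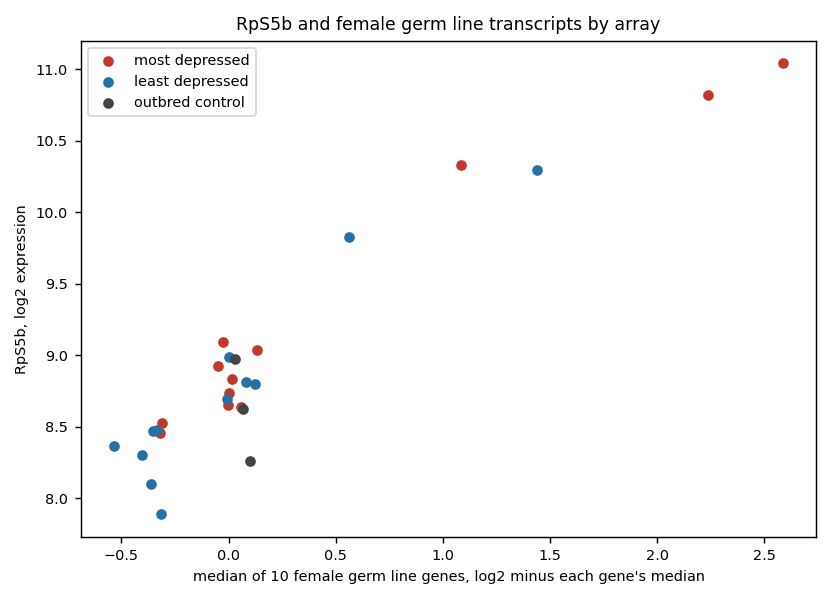
RpS5b log2 expression (vertical axis) against the median of 10 female germ line genes (horizontal axis, log2, each gene at 0 at its median over arrays) in the 27 arrays. The 5 arrays at the right, 3 most depressed and 2 least depressed, have RpS5b from 9.83 to 11.04, above all other arrays.

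The genes that act around the ribosome were described from lists, with the members of each counted by the same test. Of all probe sets, 25.9% were higher and 13.2% lower in most depressed and 30.7% higher and 15.1% lower in least depressed sublines against the control, and 6.39% were higher and 9.04% lower in most against least depressed sublines. With the later sample code as a covariate, 1.34% were higher and 2.92% lower between these levels. The lists were counted in the main setting only, and whether their calls between levels hold with this covariate was not tested. Of 30 translation factors, 14 rose and 2 fell against the control in both most and least depressed sublines, with median changes of 0.14 in each. Between most and least depressed sublines 2 rose and 4 fell, near the shares over all probe sets. The largest were eIF2beta, a subunit of the factor that brings the initiator tRNA (-0.31, adjusted p = 6.9e-05), eRF3, a release factor (-0.22, adjusted p = 0.0256), eIF3l, a subunit of the scaffold of initiation (0.21, adjusted p = 0.0156), and eEF1alpha2, an elongation factor (0.17, adjusted p = 0.0317).

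Of 18 ribosome biogenesis genes tested, 0 rose and 5 fell in most depressed sublines, with a median change of -0.24. Over all probe sets 9.04% were lower. The 40 ribosomal proteins had a median of -0.04, and no test was made of the difference. NHP2 and Nop10, proteins of the box H/ACA particles that modify ribosomal RNA, fell by 0.49 (adjusted p = 0.000523) and by 0.45 (adjusted p = 0.00276). RpLP0-like, a relative of the stalk protein that acts in assembly in yeast, fell by 0.33 (adjusted p = 0.00357), and Polr1A, the largest subunit of RNA polymerase I, fell by 0.33 (adjusted p = 0.0029). Against the control, 7 of 18 rose in most depressed and 11 of 18 in least depressed sublines and 0 fell, where 25.9% and 30.7% of all probe sets were higher. RpL24-like and RpL7-like are counted in this list as well as among the members. The list was at -0.34 to 0.39 in most depressed, -0.07 to 0.46 in least depressed and -0.27 to -0.19 in control arrays, so the most depressed arrays overlapped with both other classes.

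Among 13 regulators of ribosomal protein genes, 2 rose and 0 fell in most depressed sublines against least depressed ones, where 6.39% of all probe sets were higher and 9.04% lower, and with so few genes nothing is read from the count. These were chico, the insulin receptor substrate (0.24, adjusted p = 0.00309), and REPTOR, a transcription factor held back by TORC1 (0.22, adjusted p = 0.00275). Against the control REPTOR fell by 0.35 in most depressed (adjusted p = 0.00104) and by 0.57 in least depressed sublines (adjusted p = 6.28e-06). Of 69 genes of the mitochondrial ribosome, which is built from its own set of proteins, 5 rose and 15 fell in most depressed and 13 rose and 12 fell in least depressed sublines against the control. Their median change was -0.03 in most depressed and 0.03 in least depressed sublines, where that of the cytosolic ribosomal proteins was 0.13 in most and 0.16 in least depressed sublines. Of all probe sets, 25.9% were higher and 13.2% lower in most depressed, and 30.7% higher and 15.1% lower in least depressed sublines. The 12 that fell in least depressed sublines are near the 15.1%. Between most and least depressed sublines 0 of the 69 rose and 9 fell, with a median of -0.06, where 6.39% of all probe sets were higher and 9.04% lower.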

How the data were processed

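The authors extracted total RNA of whole males, hybridised it to 27 arrays (3 per group, 9 groups) and deposited log2 expression values made with RMA (background adjustment, quantile normalization, probe set summary). The submitters' processing notes name Partek 7.3.3 and the affy package. The table of all 27 arrays was used, and the separate table of the 24 inbred arrays as an alternative. The 183 control probe sets were left out. Of the other 18769, 13647 match 1 gene, 402 several and 4720 none in the platform annotation. The present calls by which 9133 probe sets were retained were not among the sources used here, and the 9133 with the highest maximum stood in for them. Arrays have no read depth, and their number limits the precision.

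Means of the 9 groups were fitted with limma 3.58.1 in R 4.3.3 (variance trend, Benjamini-Hochberg over 9133 probe sets, threshold 0.05), after a test on simulated data. The labels call the arrays biological replicates. In the inbred groups these are separate sublines, and the control samples are pools of males from randomly chosen replicates of the outbred control. Every sample had the spread of its probe set shared over all groups. The genes named are, per comparison, the 5 largest rises and falls past the threshold, the paralogues, the stalk proteins, the 3 members with the highest and lowest level, and up to 4 genes of each further list; other names are said to be chosen later. The lists for muscle, gut, testis, accessory gland, photoreceptor, fat body, blood cells, eggshell, yolk and female germ line served as markers. The members, lists and tests were chosen with earlier results of these data known. Alternatives were no filter, array weights, median centring, later sample codes as a covariate, a replicate block, the inbred table, the mean over probe sets of a gene, and leaving out each array, the 3 arrays with eggshell and yolk transcripts, or, chosen after seeing the data, the 5 with female germ line transcripts.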

Additional observations from a re-analysis of the deposited data

How the results depend on the processing

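Of 48 calls of single members, none reversed. They kept their side of the threshold in 306 of 390 repeats under other settings, and in 1181 of 1296 repeats without 1 array. The counts moved more. For least depressed sublines against the control, 27 members rose, 12 with median centring and 4 with the later sample code as a covariate. Of all probe sets, 30.7%, 22.2% and 15.9% were higher in these settings. For most depressed sublines against the control, 15 rose, 29 with array weights and 9 with median centring, where 25.9%, 36.0% and 20.1% of all probe sets were higher. For most against least depressed over 4 lines, 1 member fell, 0 with the code covariate and 3 without the arrays with eggshell transcripts. The shares of all probe sets that were lower were 9.04%, 2.92% and 8.97%. In line 12, 1 fell, 6 with array weights, and 0 with no filter, with centring, with the code covariate and with the inbred table. All probe sets of this line had 3.55% lower in the main setting and 6.83% with array weights. The share was 1.23% with no filter, 2.66% with centring, 0.153% with the code covariate and 3.21% with the inbred table. In line 15, 1 fell and 0 without the arrays with female germ line transcripts, where 1.2% and 0.109% of all probe sets were lower. Between lines, 1 member was called, 0 with no filter, 2 with array weights, with centring or without the eggshell arrays, and 3 in the inbred table. Of all probe sets, 11.8% differed between lines in the main setting (1081 probe sets), so the 1 of 40 members lay below this share. The number of probe sets was 1381 with no filter, where more were tested, and 1588 with array weights. It was 1105 with centring, 906 without the eggshell arrays and, for the 24 inbred arrays alone, 1147.

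With 1 array left out at a time, the members that rose numbered 17 to 31 in least and 6 to 28 in most depressed sublines against the control. Those that fell between levels numbered 1 to 3 over 4 lines, 0 to 1 in line 5, 0 to 3 in line 12 and 0 to 1 in line 15, and those that differed between lines 0 to 3. Shares of all probe sets were not computed with 1 array left out, so no background stands beside these counts. The count over 4 lines was 3 without line 15 most depressed replicate 2 and 2 without line 5 most depressed replicate 1, and that of line 12 was 3 without line 15 most depressed replicate 1 and 2 without line 5 least depressed replicate 3. The lowest counts against the control, 17 and 6, came without outbred control replicate 1, and the 28 without line 15 most depressed replicate 1. The labels do not say that replicate numbers pair most with least depressed sublines, which are separate sublines. The deviations of most and least depressed sublines with the same number correlated from -0.549 to 0.254. With 3 arrays per group, and no pairs of different numbers set beside them, these correlations cannot decide whether the numbers pair. With the replicate block the count was 0 in line 12, 0 between lines, 13 in most depressed sublines against the control and 27 in least depressed sublines against the control. Of all probe sets in this setting, 2.91% were lower in line 12. Against the control 24.6% were higher in most and 29.3% in least depressed sublines, and 902 probe sets differed between lines. The cause of these changes in the counts was not tested. With 3 control samples, the comparison with the control rests on few arrays.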

Other observations

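Marker lists of other tissues gave values that no comparison above uses. They are read against the 25.9% of all probe sets called higher and 13.2% lower in most depressed, and the 30.7% higher and 15.1% lower in least depressed sublines against the control. Photoreceptor genes rose in 6 of 6 genes tested in most depressed and in 5 of 6 in least depressed sublines against the control. Fat body genes had 2 that rose and 1 that fell of 6 in each of these comparisons, and blood cell genes had 0 called of 6 (limma, 0 at an unadjusted p under 0.05). Testis genes rose in 3 of 16 in both, below the share of all probe sets, and 0 of 16 were called between most and least depressed sublines (limma, 0 at an unadjusted p under 0.05). Of the 9 eggshell, 3 yolk and 5 female germ line genes tested, none was called in these 3 comparisons (limma, with 3 eggshell genes at an unadjusted p under 0.05 between depression levels and none otherwise). Between depression levels 6.39% of all probe sets were called higher and 9.04% lower, and 27.5% were at an unadjusted p under 0.05. Against the control 47.3% were at this p in most and 53.1% in least depressed sublines.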
